A study of Mus musculus with 6 samples.

Results

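Epicardial and mesothelial marker genes were followed in mouse embryonic heart cultures treated with siRNA against Dnmt1, the maintenance DNA methyltransferase. The list held 9 genes chosen as known markers of the epithelial cell layer on the heart's surface and of related mesothelium: Wt1, Tcf21, Upk3b, Upk1b, Msln, Muc16, Krt8, Krt18 and Krt19. Of these, 8 were matched by gene identifier to 1 of the 43629 gene rows of the count tables, and Muc16, which encodes a large mucin, is not analysed here. All 8 passed the filter on low counts. The list was drawn up with earlier results of these data known, which limits what its shares beside all tested genes can mean.

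Ventricles of CD-1 mouse embryos at embryonic day 13.5 were pooled within a litter and dissociated, and the cells that did not attach to an uncoated flask in 1 hour were taken as mostly cardiomyocytes. After 48 hours of culture these cells received 12 nM of DNMT1 siRNA, a pool of 4 siRNAs, or 12 nM of a negative control siRNA, with the same lipid reagent. The cells were collected 72 hours later, and those binding an antibody to VCAM1, a surface protein of embryonic cardiomyocytes, were taken with magnetic beads, so every library comes from sorted cells of a mixed culture. The authors state that, by their earlier flow cytometry, the great majority of cells sorted this way were cardiomyocytes. No such measure of these libraries is given in the sources used here. Poly(A) RNA of 3 cultures per treatment was sequenced. The labels do not say whether the 3 cultures of a treatment came from separate litters, so the p-values measure the spread between these cultures, which may be technical. For the samples titled DNMT1 siRNA, the treatment field reads DNMT3a siRNA. Dnmt1 itself, at 3446, 2760 and 2878 normalized counts with negative siRNA, was at 772, 786 and 666 with DNMT1 siRNA, and fell by 2.03 on the log2 scale (SE 0.11, adjusted p = 0.000192). The titles therefore set the groups here.

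The negative siRNA libraries held 27852412 to 35896018 reads on genes and the DNMT1 siRNA libraries 13739561 to 16186310, so that 3 reads, the floor used here, correspond to 0.0836 to 0.218 CPM (reads scaled to the library total). The share of uniquely mapped reads on no annotated gene ran from 14.6 to 17.51% in the negative siRNA libraries and from 24.41 to 31.95% in the others. The share that fell on more than 1 gene, and so was counted for none, ran from 3.581 to 3.649% and from 6.018 to 6.351%. Both shares moved with the treatment in every library, and their part in the results below was not tested. Vcam1, the gene of the sorted protein, was at 6446 ± 999.5 normalized counts (SD, n = 3) with negative siRNA and 5389 ± 106 with DNMT1 siRNA (log2 fold change -0.26, adjusted p = 0.148).

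The epicardium is the mesothelium of the heart. It is a single sheet of cells with both epithelial features, such as keratin filaments and cell junctions, and mesenchymal potential: some of its cells leave the sheet, enter the muscle wall and become fibroblasts and the smooth muscle of coronary vessels. WT1 is a zinc finger transcription factor of that layer, and TCF21 a basic helix-loop-helix factor of the epicardium and of cells on the way to cardiac fibroblasts. Uroplakins are membrane proteins first known from the bladder lining, mesothelin is a cell surface protein that binds MUC16, and keratins 8, 18 and 19 form the intermediate filaments of simple epithelia.

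In the negative siRNA cultures the marker genes were not minor transcripts. Per length, as RPKM over the annotated exons with TMM-adjusted library sizes (the levels used in this paragraph), Upk1b was at 176 ± 24.1 (SD, n = 3), Msln at 164 ± 7.48 and Upk3b at 159 ± 28.2, and each lay above 99.1 to 99.2% of the tested protein-coding genes. These levels lie within the spread of one another. Tcf21 followed at 78.6 ± 8.29, above 97.2% of those genes. Wt1, at 20.9 ± 1.35, and the keratins Krt18 (17.7 ± 5.83), Krt19 (12.8 ± 2.99) and Krt8 (10.8 ± 3.41) stood lower, and these 3 keratins lay within the spread of one another too. When the length of the longest coding transcript was used instead, Msln came first at 232 ± 10.6, Upk1b second at 195 ± 26.6 and Wt1 came to 42.0 ± 2.71. The annotated exons of Wt1 cover 6195 bases and its longest coding transcript 3090. The 3 keratins stayed the lowest with either length.

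**Figure D1:**
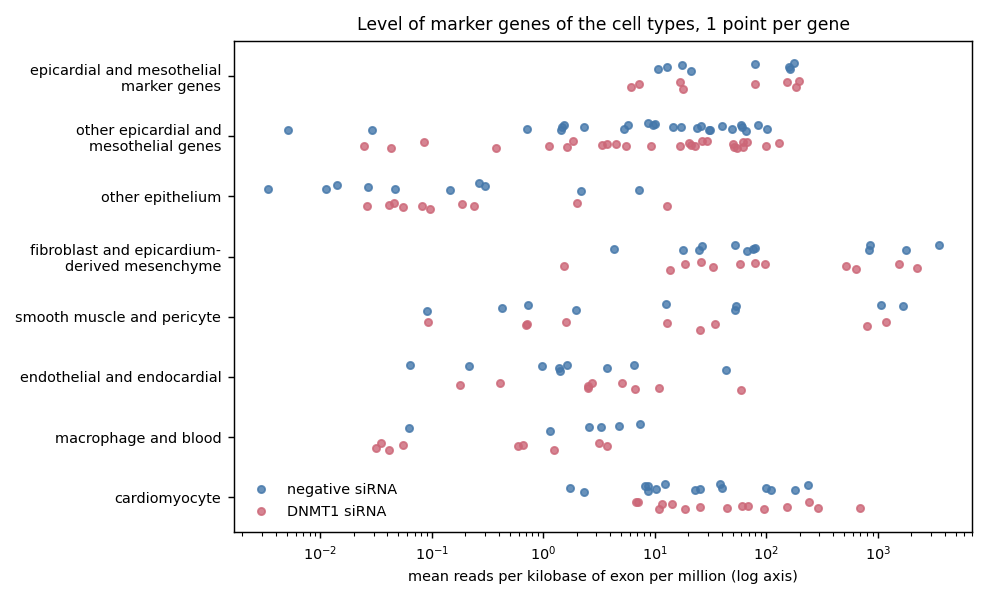
Mean level per gene in each treatment, as RPKM over exons on a log axis, for the marker genes of each cell type, with 1 point per gene and treatment (n = 3 cultures each). Genes with no read in a treatment are not drawn. Upk1b, Msln and Upk3b sit between 154 and 198, and the 3 keratins between 6.10 and 17.7.

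The culture was labelled by its cardiomyocyte enrichment, and its defining muscle genes were present: all 15 listed passed the filter, with Actc1, cardiac actin, at 237 RPKM with negative siRNA. The 9-gene epicardial list, with Muc16 missing, summed to 585 to 681 RPKM with negative siRNA, beside 699.7 to 971 for the cardiomyocyte genes and 6501 to 8803 for genes of fibroblasts and epicardium-derived mesenchyme. These sums cover lists of unlike size and do not measure shares of cells. A few matrix genes made up most of the last sum, with means of 3542 for Col1a1 and 1806 for Fn1. Tcf21 is in both the epicardial and the fibroblast list. Epcam and Cdh1, the defining adhesion genes of most other epithelia, had at most 6 reads in any library, and 3 of 10 genes listed for other epithelia were tested, with no call (Cldn3 0.84, adjusted p = 0.110, and Esrp2 -0.13, adjusted p = 0.565, as log2 fold changes with DNMT1 siRNA). The haemoglobin genes Hba-a1, Hbb-bt and Hbb-y had at most 3 reads in any library.

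Across the treatment, Krt19 was the 1 marker gene of the 8 that changed under both limits, a false discovery rate below 0.05 and a fold change above 1.5, in the edgeR quasi-likelihood fit over all 15470 tested genes. It was lower with DNMT1 siRNA, a direction in which 2.23% of all tested genes passed (6.49% in either direction). No marker gene passed as higher, a direction taken by 4.26%. The normalized counts of 3 of the 8, Wt1, Krt8 and Krt19, were lower in every DNMT1 siRNA culture than in any negative siRNA culture, a pattern shown by 17.7% of all tested genes, and none was higher in every culture (18.3% of all, or 36.0% in either direction). The median log2 fold change was -0.084 over the 8 and -0.0049 over all tested genes. The cultures were mixed before the sort and a library holds the RNA of many cells. Fewer cells of a type and less RNA per cell thus cannot be told apart.

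**Figure D2:**
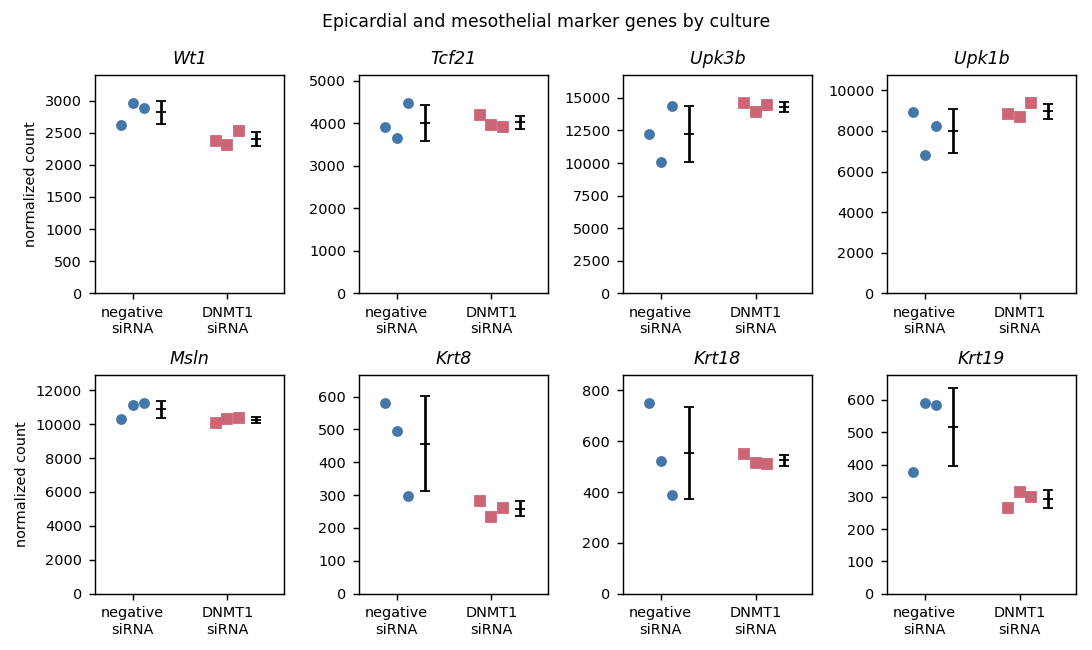
Normalized counts of the 8 marker genes in each of the 3 cultures per treatment (points), with group means and SDs. Wt1, Krt8 and Krt19 are lower in all 3 DNMT1 siRNA cultures, and in every panel the DNMT1 siRNA cultures lie closer together.

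**Figure D3:**
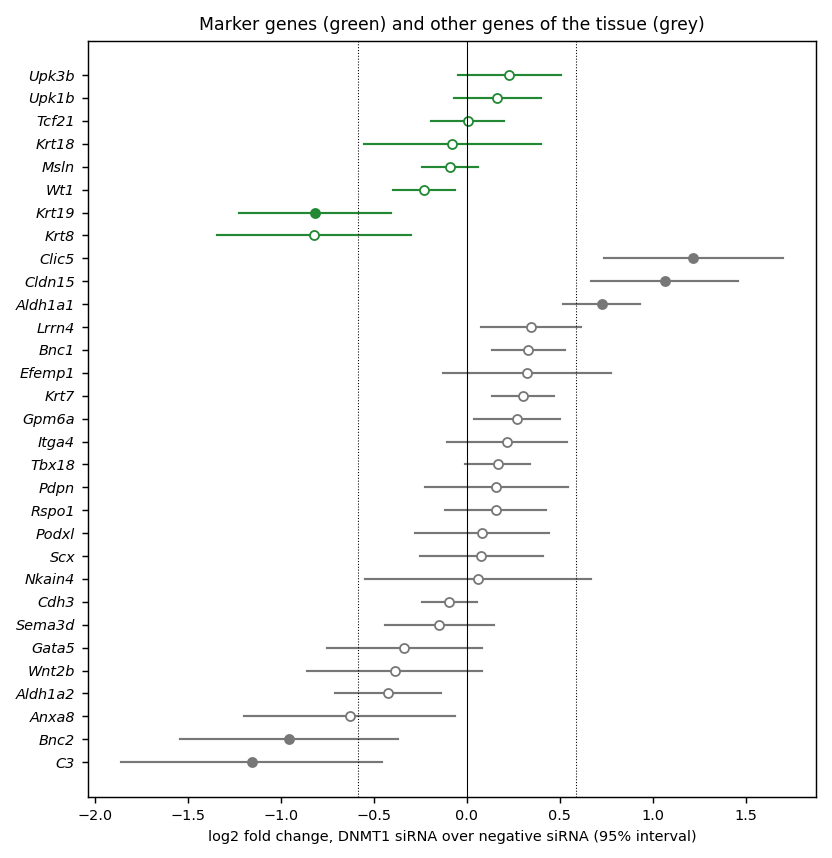
Log2 fold change, DNMT1 siRNA over negative siRNA, with its 95% interval from the edgeR quasi-likelihood fit, for the marker genes in green and other genes of the tissue in grey. The intervals of Krt19, Krt8 and Wt1 lie below 0 and those of Upk3b, Upk1b, Tcf21, Msln and Krt18 include 0.

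The keratins form filaments only as pairs of an acidic type I keratin (Krt18, Krt19) with a basic type II keratin (Krt7, Krt8), and all but Krt7 are on the list. Krt19 (chr11:100140810-100148665, minus strand, GRCm38) was at 378, 589 and 583 normalized counts in the negative siRNA cultures and at 264, 316 and 299 in the DNMT1 siRNA cultures. The groups did not overlap, and the DNMT1 siRNA mean was 56.8% of the negative siRNA mean (293 ± 26.6 against 517 ± 121, SD, n = 3). The log2 fold change was -0.82 (SE 0.18, 95% interval -1.23 to -0.41, adjusted p = 0.0242). Without any 1 of the DNMT1 siRNA cultures the call was lost (adjusted p = 0.0913, 0.0894 and 0.0856 for cultures 1, 2 and 3), as it was without negative siRNA culture 3 (adjusted p = 0.0557), while the log2 fold change ran from -1.0 to -0.71.

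Krt8 (chr15:101996698-102004482, minus strand) had the same fold change and a wider spread. Its negative siRNA cultures stood at 579, 495 and 297 normalized counts and its DNMT1 siRNA cultures at 282, 235 and 262. The lowest control culture was thus only just above the highest treated one, and the log2 fold change of -0.82 (SE 0.23, 95% interval -1.34 to -0.30) missed the limit at an adjusted p of 0.0511. Without negative siRNA culture 3, the lowest, Krt8 passed at -1.05 (adjusted p = 0.00564). Without any other 1 culture it did not pass (adjusted p = 0.0624 to 0.191), and without negative siRNA culture 1 the log2 fold change was -0.61. Of the 75-base stretches of its longest coding transcript, 23.46% also occur in another annotated gene, nearly all of them in the pseudogene Krt8-ps, and the antisense gene Gm36026 overlaps 271 of its bases. Reads of the stretches shared with Krt8-ps cannot be placed by their sequence. The libraries did not mark strand, so reads of the bases shared with Gm36026 cannot be told apart either. The Krt8 values are uncertain to that extent.

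Krt18 (chr15:102028180-102032027, plus strand), the usual partner of Krt8 and its neighbour 23697 bases away, was not called. It stood at 749, 522 and 389.6 normalized counts with negative siRNA and at 549.8, 515 and 512 with DNMT1 siRNA. The treated values lay inside the control range, with a log2 fold change of -0.078 (SE 0.21, 95% interval -0.55 to 0.40, adjusted p = 0.835). The wide interval leaves room for a change of either sign.

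The promoters of these 2 neighbours are shown because the knocked-down enzyme copies methylation at CpG, and their CpG content differs. Those of Upk3b and Tcf21 are shown as the other tested markers with such a window. None of these 4 genes passed the test. The windows are RefSeq sequence on GRCm38.p6, from 250 bases before to 50 after the start, 5′ to 3′ on the gene's strand, with each CpG in capitals, and 5 of the 9 listed genes had one.
Krt8 (chr15:102004293-102004592, minus strand): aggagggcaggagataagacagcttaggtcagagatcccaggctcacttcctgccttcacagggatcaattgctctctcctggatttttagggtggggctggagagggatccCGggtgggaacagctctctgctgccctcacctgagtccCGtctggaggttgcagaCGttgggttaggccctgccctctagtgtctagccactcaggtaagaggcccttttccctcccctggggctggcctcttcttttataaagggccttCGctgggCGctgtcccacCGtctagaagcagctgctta
Krt18 (chr15:102027966-102028265, plus strand): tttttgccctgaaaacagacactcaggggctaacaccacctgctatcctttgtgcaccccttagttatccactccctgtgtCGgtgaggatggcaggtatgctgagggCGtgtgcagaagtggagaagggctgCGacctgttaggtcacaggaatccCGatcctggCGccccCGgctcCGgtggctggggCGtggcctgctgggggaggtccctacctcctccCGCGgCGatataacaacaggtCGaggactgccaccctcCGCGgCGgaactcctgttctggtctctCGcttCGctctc
Upk3b (chr5:136038246-136038545, plus strand): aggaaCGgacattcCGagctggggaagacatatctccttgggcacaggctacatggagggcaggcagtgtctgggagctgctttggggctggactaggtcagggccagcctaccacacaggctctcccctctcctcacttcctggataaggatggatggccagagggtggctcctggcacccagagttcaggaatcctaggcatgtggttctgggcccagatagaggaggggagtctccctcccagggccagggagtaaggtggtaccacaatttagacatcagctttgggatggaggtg
Tcf21 (chr10:22820094-22820393, minus strand): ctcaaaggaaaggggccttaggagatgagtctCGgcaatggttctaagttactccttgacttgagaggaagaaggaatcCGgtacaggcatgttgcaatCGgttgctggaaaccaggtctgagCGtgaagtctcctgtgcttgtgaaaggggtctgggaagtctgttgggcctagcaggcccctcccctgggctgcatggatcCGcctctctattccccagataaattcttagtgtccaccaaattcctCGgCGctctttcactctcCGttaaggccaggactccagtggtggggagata
Krt8 held 6 CpG, Krt18 17, Upk3b 2 and Tcf21 8, and the window of Muc16 held 1. The median of all 32851 promoter windows was 7, and 94.6% held at least 1. The Krt18 window thus had more CpG than 68.6% of all windows and the Upk3b window more than 14.1%. The motif TATAAA, searched on both strands, occurred in the Krt8 window alone of these 5, as 1 site where the motif and its reverse complement TTTATA overlap, and in 13.6% of all windows. The GC box GGGCGG, also searched on both strands, was in none of the 5 and in 35.7% of all windows. These are descriptions of the letters, and methylation of the windows was not analysed here.

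Of the 12 keratin genes listed, 8 were tested. Beside the 3 above, Krt7, the most abundant of them by normalized count, was at 2764, 2436 and 2673 with negative siRNA and at 3338, 3281 and 3085 with DNMT1 siRNA. All 3 treated cultures were higher, and the log2 fold change of 0.30 (SE 0.072) had an adjusted p of 0.0320 and fell short of the fold limit. Krt14, a keratin of stratified epithelia, was at 83.2 ± 25.5 and 46.8 ± 5.74 normalized counts (log2 fold change -0.83, adjusted p = 0.0844). Krt20 (0.73), Krt80 (0.62) and Krt10 (0.24) had positive log2 fold changes with adjusted p from 0.144 to 0.574. Krt5 and Krt15 had at most 3 reads in every library.

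Taken within each library, the keratins per length differed in proportion. Krt8 to Krt18 was 0.568, 0.696 and 0.560 with negative siRNA and 0.376, 0.335 and 0.375 with DNMT1 siRNA, with no overlap. Krt19 to Krt7 went from 0.519, 0.920 and 0.829 to 0.301, 0.366 and 0.369, again with no overlap. The size of that ratio depends on the lengths used, 7049 annotated exon bases for Krt7 and 1855 for Krt19. These lengths are the same in both treatments, and the ratio is no measure of which keratin is more abundant. Krt19 to Krt18 overlapped, because negative siRNA culture 1, at 0.390, lay within the treated range of 0.372 to 0.476. These pairs were chosen with the values known and were not tested. An exact test of 3 against 3 cultures cannot give a two-sided p below 0.1.

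**Figure D4:**
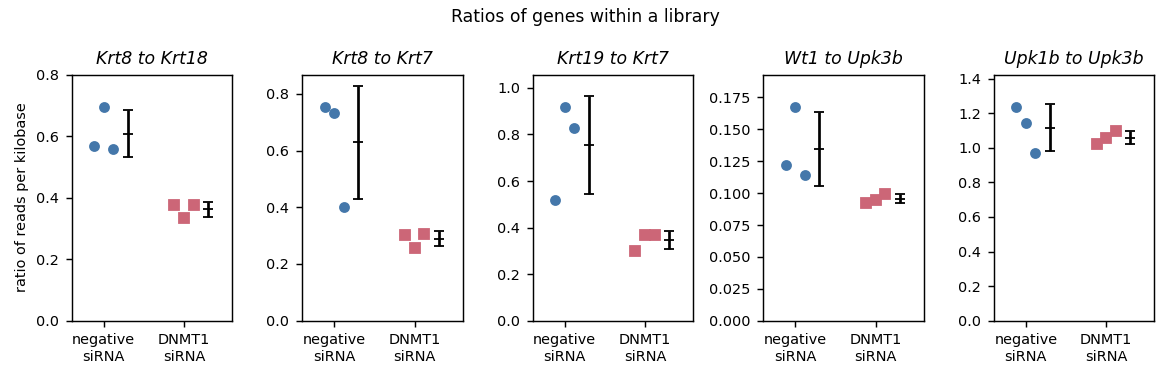
Ratios of levels per kilobase of exon between pairs of genes within each library, with 3 points per treatment and group means. Krt8 to Krt18 does not overlap between treatments (0.608 ± 0.0766 against 0.362 ± 0.0236), whereas Upk1b to Upk3b does (1.12 ± 0.136 against 1.06 ± 0.0364).

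The uroplakins of the list were high and did not pass the test. Upk3b (chr5:136038496-136046487, plus strand) was at 12220.1, 10056 and 14381 normalized counts with negative siRNA and at 14604, 13885 and 14461 with DNMT1 siRNA, so the top control culture lay inside the treated range (log2 fold change 0.23, SE 0.12, 95% interval -0.047 to 0.50, adjusted p = 0.25). Upk1b (chr16:38773184-38800328, minus strand), a tetraspanin that pairs with type III uroplakins such as UPK3B, was at 8949, 6805 and 8253, and then at 8835, 8695 and 9371. Its log2 fold change was 0.16 (SE 0.10, 95% interval -0.070 to 0.40, adjusted p = 0.327), and the groups overlapped. Of the 6 uroplakin genes listed, only Upk1a was tested besides them, at 12.2 ± 3.40 and 15.7 ± 3.50 normalized counts (adjusted p = 0.534). Upk2, Upk3a and Upk3bl had at most 3 reads in every library.

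Msln (chr17:25748613-25754378, minus strand), which encodes the surface protein mesothelin, was the steadiest marker gene in both treatments. It stood at 10315, 11121 and 11223 normalized counts with negative siRNA and at 10044, 10275 and 10366 with DNMT1 siRNA. The lowest control culture lay just under the highest treated one, and the log2 fold change was -0.090 (SE 0.066, 95% interval -0.24 to 0.061, adjusted p = 0.407).

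Of the transcription factor genes, Wt1 (chr2:105126529-105173616, plus strand) was at 2614, 2961 and 2879.55 normalized counts with negative siRNA and at 2368, 2315 and 2524 with DNMT1 siRNA. Every treated culture was lower, but the log2 fold change was only -0.23 (SE 0.073, 95% interval -0.40 to -0.064) at an adjusted p of 0.0754. Tcf21 (chr10:22817281-22820174, minus strand) was at 3910.4, 3648 and 4475 and then at 4205, 3953 and 3917. Those ranges overlap, with a log2 fold change of 0.0052 (SE 0.086, 95% interval -0.19 to 0.20, adjusted p = 0.976). The antisense gene Gm10824 covers all 2894 bases of Tcf21, so reads of both genes count together here. Per length of annotated exons, the ratio of Wt1 to Upk3b was 0.135 ± 0.0290 in control and 0.0956 ± 0.00356 in treated cultures, with no overlap. That of Wt1 to Tcf21 was 0.268 ± 0.0344 and 0.227 ± 0.0159 and overlapped. The size of both ratios depends on the length used, which is the same in both treatments. By the longest coding transcript, control and treated means were 42.0 and 35.8 for Wt1, 159.4 and 186.8 for Upk3b, and 103.3 and 103.7 for Tcf21. These ratios too were chosen with the values known and were not tested.

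The treated cultures were more alike than the control cultures in all 8 genes. The coefficient of variation of the normalized counts ran from 4.57% (Msln) to 32.9% (Krt18) with negative siRNA and from 1.62% (Msln) to 9.08% (Krt8) with DNMT1 siRNA. Over all tested genes the median SD of log2 CPM was 0.174 and 0.0982, and over the 8 it was 0.231 and 0.0571, so the narrower spread with DNMT1 siRNA was not a property of these genes alone.

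Among the 6 libraries, Wt1 tracked Krt19 (r = 0.939) and Msln (r = 0.921), Krt19 tracked Msln (r = 0.966), and Upk3b tracked Upk1b (r = 0.813), whereas Upk3b and Krt8 ran opposite (r = -0.796). These correlations describe 6 points that share treatment, library and scaling. Among 11639 other protein-coding genes, those whose log2 CPM followed the average of the 8 most closely over the 6 libraries were Sept2 (r = 0.996), Mad2l2 (0.996), Med19 (0.995), Pak2 (0.995) and Tmem144 (0.995). After the treatment means were removed they were Siah1b (0.999), Plpp6 (0.999), Egr2 (0.998), Kif18b (0.997) and Tspan12 (0.995). No gene was in both sets. With 6 libraries, the highest of 11639 values of r can lie near 1 through selection alone. No link of these genes to the 8 is drawn from them. The average is also not a profile that all 8 shared, as Upk1b and Krt19 ran opposite too (r = -0.774).

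The wider list of epicardial and mesothelial genes held 26, of which 23 were tested, 3 rose and 2 fell (4.26% and 2.23% of all tested genes). Its median log2 fold change was 0.15, and 8 genes were higher and 4 lower in every treated culture, beside 18.3% and 17.7% of all tested genes. Clic5, which encodes a chloride intracellular channel family protein, rose from 277 ± 93.0 to 642 ± 32.4 normalized counts (log2 fold change 1.22, SE 0.21, adjusted p = 0.0102). Cldn15, a claudin of tight junctions, rose from 448 ± 124 to 933 ± 44.0 (1.06, SE 0.17, adjusted p = 0.00817). Aldh1a1, a retinaldehyde dehydrogenase, rose from 3357 ± 397 to 5549 ± 169 (0.73, SE 0.090, adjusted p = 0.00286). It is named after its values were seen. C3, complement component 3, fell from 1125 ± 481 to 503 ± 46.4 (log2 fold change -1.16, adjusted p = 0.0447) and Bnc2, a basonuclin zinc finger gene, from 128 ± 31.4 to 66.3 ± 19.3 (-0.96, adjusted p = 0.0458). Without any 1 of the DNMT1 siRNA cultures 2 genes of the list passed, and without negative siRNA culture 3 it was 3.

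**Figure D5:**
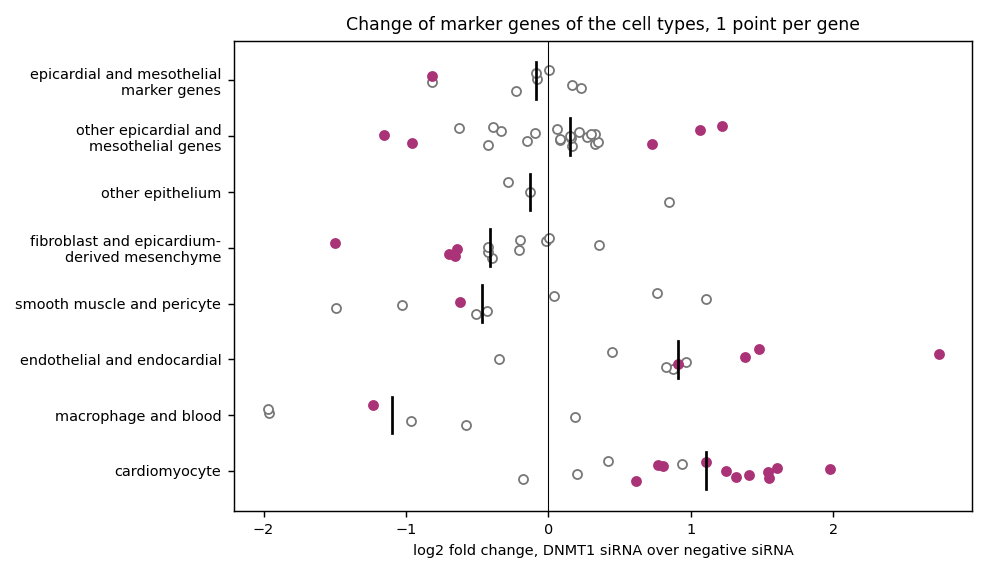
Log2 fold change of marker genes of the cell types, with 1 point per tested gene and DNMT1 siRNA over negative siRNA. The 8 epicardial members range from -0.82 to 0.23, and the cardiomyocyte genes from -0.18 to 1.98.

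Other epicardial genes with high counts did not pass both limits. Sema3d, a secreted semaphorin gene, and Lrrn4, which encodes a membrane protein, had log2 fold changes of -0.15 (adjusted p = 0.487) and 0.34 (adjusted p = 0.0916). Aldh1a2, the main retinoic acid synthesis gene of the embryonic epicardium, was at 1512 ± 279 and 1127 ± 13.0 normalized counts (-0.42, adjusted p = 0.0603), lower in every treated culture. Tbx18, an epicardial T-box gene, was at 2429 ± 124 and 2725 ± 204 (0.17, adjusted p = 0.195). Bnc1 was at 4972 ± 516 and 6251 ± 176 (0.33, adjusted p = 0.0414) and missed the fold limit alone. Lrrn4, Tbx18 and Bnc1 were higher in every treated culture. Aldh1a2, Tbx18 and Bnc1 were named after their values were seen. Calb2 and Slurp1 had at most 3 reads in every library.

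Markers of other cell types moved beside the epicardial list. Summed levels of the 15 cardiomyocyte genes, as RPKM, were 699.7 to 971 with negative siRNA and 1538 to 1950.3 with DNMT1 siRNA, and 11 genes rose (4.26% of all tested genes), among them Ttn (log2 fold change 1.98), Ryr2 (1.605), Tnni3 (1.55), Actc1 (1.54), Myh6 (1.41) and Tnnt2 (0.61). Of 9 endothelial and endocardial genes 4 rose (sum of all 9, 54.7 to 63.5 against 88.6 to 93.4), Npr3 (2.74), Vwf (1.48), Emcn (1.38) and Kdr (0.91). Eng, at 0.45 and an adjusted p of 0.0185, missed the fold limit. It made up most of the sum, with means of 43.8 RPKM with negative siRNA and 59.7 with DNMT1 siRNA. Tek went the other way, lower in every treated culture at -0.35 (adjusted p = 0.0373), and also missed the fold limit.

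Of 12 fibroblast and mesenchyme genes, 4 passed as lower, beside 2.23% of all tested genes, and none as higher (sum 6501 to 8803 against 5157 to 5430.25). The log2 fold changes were -1.497 for Dpt, -0.69 for the collagen gene Col1a2, -0.65 for Col1a1 and -0.64 for Dcn, of the proteoglycan decorin. Thy1 was higher in every treated culture at 0.36 (adjusted p = 0.0137) and missed the fold limit, and Fn1, of fibronectin, was at -0.20 (adjusted p = 0.183). Tek and Thy1 were named after their values were seen. Tcf21 is itself 1 of the 12. Of 8 tested smooth muscle and pericyte genes 1 fell, Pdgfrb (-0.62), while Acta2 (-0.51, adjusted p = 0.0457) missed the fold limit and Tagln was at -0.43 (adjusted p = 0.128). Of the 8, 5 had negative log2 fold changes and 3 positive ones. In every treated culture 3 were lower and 2 higher, beside 17.7% and 18.3% of all tested genes. The 2 higher ones, Rgs5 (1.10, adjusted p = 0.111) and Abcc9 (0.76, adjusted p = 0.150), were named after their values were seen. Of 6 tested macrophage and blood genes 1 fell, Lyz2 (-1.23), and Csf1r was at -0.96 (adjusted p = 0.0796). Without any 1 of the DNMT1 siRNA cultures, 7 to 9 cardiomyocyte genes, 1 endothelial gene and 0 to 1 fibroblast gene passed. Without negative siRNA culture 1, 2 or 3 these counts were 10, 14 and 9, 3, 7 and 2, and 4, 2 and 4. For smooth muscle they ran from 0 without DNMT1 siRNA culture 2 to 4 without negative siRNA culture 1, and for macrophage and blood genes they were 4 without negative siRNA culture 1 and 0 without any other culture. The sum of the epicardial members overlapped, at 585 to 681 with negative siRNA and 652 to 677 with DNMT1 siRNA. The part of these shifts in the values of the 8 genes was not tested.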

How the data were processed

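RNA of sorted embryonic mouse ventricle cell cultures was sequenced in 6 libraries, 3 per siRNA. Per the labels and methods, the authors cleaned reads with FastQC, aligned them with TopHat2 to mm10 (GRCm38) and deposited whole-number HTSeq read counts per gene. No versions are given in the sources used here. Rows that name no gene stayed out of library sizes and tests. Counts were normalized by TMM and tested with edgeR 4.0.16 (R 4.3.3; filterByExpr with minimum count 10, quasi-likelihood F test), with Benjamini-Hochberg adjustment over 15470 genes and limits of 0.05 and a fold change of 1.5. Normalized counts are counts divided by the TMM-adjusted library size relative to its geometric mean. Levels per kilobase used union exons from GENCODE M21.

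The members and lists were chosen with earlier results of these data known. Named genes are all members, Dnmt1, Vcam1, every tested uroplakin and keratin, and in other lists up to 4 called genes of largest change and the 2 of highest abundance, with exceptions noted. Counting intervals and floors cover counting error only. Alternatives were DESeq2 1.42.0, other scalings, filters and limits, an exact test, thinning, a replicate block and leaving out each culture.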

Additional observations from a re-analysis of the deposited data

How the results depend on the processing

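Msln, Upk1b, Upk3b and Wt1 kept their direction and stayed uncalled in all 14 alternatives, and Krt19 kept its direction in all 14. For Wt1 and Upk3b this rested on the fold limit where the false discovery rate crossed 0.05: Wt1 had an adjusted p of 0.0411 with DESeq2, 0.0357 with library size alone, 0.0405 with no filter and 0.0346 without negative siRNA culture 1, and Upk3b one of 0.0486 without negative siRNA culture 3. The number of marker genes past the limits was 1, and it was 2 (Krt19 and Krt8) with DESeq2, RLE normalization, the edgeR exact test, library size alone, no filter on low counts and thinning to the smallest library. It was 0 at a false discovery rate below 0.01 and ranged from 0 to 1 when a culture was left out. It was 0 without any 1 of the DNMT1 siRNA cultures, Krt8 alone without negative siRNA culture 3 and Krt19 alone without negative siRNA culture 1 or 2. The log2 fold change of Krt8 passed at -0.85 with DESeq2 (adjusted p = 0.00306), -0.82 with RLE (adjusted p = 0.0499), -0.82 in the exact test (adjusted p = 0.00886), -0.86 with library size alone (adjusted p = 0.0443), -0.85 with no filter (adjusted p = 3.3e-08) and -0.81 after thinning (adjusted p = 0.0409), and ranged from -1.05 to -0.61 when a culture was left out. Krt19 ranged from -1.0 to -0.71. Krt18 had the opposite sign, 0.20, without negative siRNA culture 1 (range -0.28 to 0.20), and Tcf21 was -0.020 with DESeq2, -0.034 with library size alone, -0.024 with no filter and -0.018 after thinning (range -0.058 to 0.092 when a culture was left out). Both stayed without a call. Genes of the comparison lists past the limits numbered 28, 15 at a false discovery rate below 0.01, and 12 to 33 with a culture left out. All tested genes past the limits numbered 1004, 420 at 0.01, 1695 with no filter, 1928 with no fold limit, and 367 to 1245 with a culture left out. The cause of these shifts was not tested.

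Cultures with the same replicate number were not more alike: their deviations correlated at 0.0064, -0.021 and 0.027. Those of different numbers correlated at -0.076 to 0.065. These values cannot show whether cultures shared a litter or a day. With a replicate block 798 genes passed, 762 of them shared with the fit without it, and Krt19 was the marker gene called (log2 fold change -0.79, adjusted p = 0.0189), while Krt8 was at -0.78 (adjusted p = 0.0590). Under the block 3 genes passed in the wider epicardial list (5 without it), 1 in the fibroblast list (4 without it) and 3 in the macrophage and blood list (1 without it). The lower depth of the DNMT1 siRNA libraries limits what can be seen of genes near the floor, such as the other uroplakins.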

Other observations

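Of 11 tested genes for keratin filament and desmosome linkers 2 rose, beside 4.26% of all tested genes, and none passed as lower. These were Dsp (2720 ± 298 to 4502 ± 281 normalized counts, log2 fold change 0.73, SE 0.093, adjusted p = 0.00319) and Dsc2 (76.3 ± 2.88 to 162 ± 15.1, 1.09, SE 0.14, adjusted p = 0.00354). Both are genes of desmosomes, the junctions that anchor intermediate filaments. Of the 11 genes, 5 had negative log2 fold changes. Vim, of the mesenchymal intermediate filament vimentin, and Plec, a filament linker, had log2 fold changes of -0.069 (adjusted p = 0.574) and -0.20 (adjusted p = 0.236). Cardiomyocytes also make desmosomes, and the cells that carried these reads cannot be told apart.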
